A study of Homo sapiens and Mus musculus with 92 samples.

Results

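The nuclear-encoded subunits of the mitochondrial respiratory chain were followed in HEL cells depleted of MLL1 or of AF9. They were chosen by gene symbol: symbols starting with NDUFA, NDUFB, NDUFC, NDUFS, NDUFV or UQCR, the SDHA to SDHD genes, and symbols starting with COX4I, COX5, COX6, COX7 or COX8. Of the 28103 gene rows in each count table, 83 carried such a symbol, and 12 of them were left out as 9 assembly factors, 2 antisense RNAs and 1 pseudogene. The remaining 71 genes were 37 subunits of complex I, 4 of complex II, 8 of complex III, 11 of complex IV, 9 tissue-restricted isoforms or gene copies, and 2 readthrough or divergent loci. NDUFA4 was counted with complex IV, where its protein resides.

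HEL is a human erythroleukemia line, labelled by the submitters as human erythroblasts, which carries no *MLL1* rearrangement. MLL1 (gene *KMT2A*) is a histone H3 lysine 4 methyltransferase, and AF9 (gene *MLLT3*) is a chromatin reader of the super elongation complex. The MLL1 experiment compared 3 control libraries with 3 MLL1 KD libraries, and the AF9 experiment compared 2 control libraries of its own with 2 AF9 KD libraries, all of poly(A) RNA. KD was by lentiviral shRNA, with a single shRNA against each gene in these libraries; controls carried a control shRNA and are labelled wild type, all cells passed puromycin selection, and the transduced cells were used as mixed populations rather than clones. Nothing in the labels ties the replicates to separate transductions, so the p-values measure the spread between these libraries, and effects of the shRNA other than loss of its target cannot be told apart from effects of that loss.

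The respiratory chain passes electrons from NADH (complex I) and succinate (complex II) through ubiquinone to complex III, cytochrome c and complex IV, which reduces oxygen. Complexes I, III and IV each combine a few subunits encoded in mitochondrial DNA with many encoded in the nucleus, whereas complex II is wholly nuclear. Erythroid cells depend on mitochondria for heme synthesis and lose them when they mature. The mitochondrially encoded subunits had no row in these tables, so each statement here is about nuclear transcripts.

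Total counts ranged from 6966345 to 10380241 per library in the MLL1 experiment and from 12278989 to 14232408 in the AF9 experiment. *KMT2A* was at 1321, 1303 and 1255 CPM (counts scaled to library size, with TMM factors) in control cells and at 818, 814 and 833 CPM in MLL1 KD cells, and *MLLT3* was at 548 and 527 CPM in control cells against 107 and 92.7 CPM in AF9 KD cells. Neither pair of groups overlapped. The *MLLT3* difference was -2.42 (log2, SE 0.10; adjusted p = 1.4e-07 by edgeR's quasi-likelihood test), whereas the *KMT2A* difference of -0.65 (SE 0.09) had an adjusted p of 0.0733 without the replicate block and of 2.2e-07 with it. Of 12 erythroid markers, all 12 were detected in both experiments, including *GATA1* (279 to 505 TPM over all libraries), while *CD3D*, *CD3G*, *CD14* and *FCGR3A*, which mark T cells and monocytes, stayed below 1 TPM in each library. *LYZ* (19.0 to 141 TPM) and *CD2* (6.88 to 31.3 TPM) were detected, and the summed markers of B cells reached 29.8 TPM and those of fibroblasts 11.4 TPM. In the MLL1 experiment the replicate 1 libraries stood apart from replicates 2 and 3 in both groups. That pattern touched the subunits: 38 of the 63 tested (60.3%) were above both other replicates in replicate 1 of control and of MLL1 KD cells alike, against 31.4% of all genes tested, so the counts of MLL1 calls and the called subunits are given without and with the replicate number as a block.

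Promoter sequences are shown for 5 of the 6 subunits called in AF9 KD cells and for *COX4I1*, the subunit with the smallest p-value in MLL1 KD cells. A promoter window was taken from RefSeq (GRCh38.p14), running from 250 bases before to 50 bases after the annotated start, and was found for 59 of the 71 genes. Capitals mark matches, on either strand, to 4 short words. The NRF1 word was GCGCATGCG. The word of GABPA and the other ETS factors was CCGGAAG. The YY1 word was ATGGCGG. For the TATA box, the letters searched were TATAAA. Each sequence is written 5′ to 3′ along the gene's own strand.
COX5A, chr15:74938024-74938323, minus strand: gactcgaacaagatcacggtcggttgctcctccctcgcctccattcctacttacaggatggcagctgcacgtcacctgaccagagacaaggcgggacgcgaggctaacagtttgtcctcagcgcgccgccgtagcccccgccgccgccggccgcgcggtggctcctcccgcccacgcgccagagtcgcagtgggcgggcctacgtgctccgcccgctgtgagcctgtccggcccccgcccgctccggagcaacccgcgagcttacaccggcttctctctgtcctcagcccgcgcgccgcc
SDHD, chr11:112086623-112086922, plus strand: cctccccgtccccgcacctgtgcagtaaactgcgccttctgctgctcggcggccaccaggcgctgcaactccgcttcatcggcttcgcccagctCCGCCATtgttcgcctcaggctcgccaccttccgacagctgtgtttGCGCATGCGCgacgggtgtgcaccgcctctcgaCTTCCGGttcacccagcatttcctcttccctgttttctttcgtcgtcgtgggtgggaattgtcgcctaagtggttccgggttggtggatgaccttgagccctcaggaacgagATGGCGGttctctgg
NDUFB7, chr19:14572017-14572316, minus strand: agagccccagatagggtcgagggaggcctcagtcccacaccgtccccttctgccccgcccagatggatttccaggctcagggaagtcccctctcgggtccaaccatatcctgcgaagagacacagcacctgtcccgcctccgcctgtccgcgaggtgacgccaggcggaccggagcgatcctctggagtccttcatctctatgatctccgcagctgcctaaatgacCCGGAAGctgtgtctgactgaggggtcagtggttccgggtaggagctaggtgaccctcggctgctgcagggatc
NDUFS7, chr19:1383657-1383956, plus strand: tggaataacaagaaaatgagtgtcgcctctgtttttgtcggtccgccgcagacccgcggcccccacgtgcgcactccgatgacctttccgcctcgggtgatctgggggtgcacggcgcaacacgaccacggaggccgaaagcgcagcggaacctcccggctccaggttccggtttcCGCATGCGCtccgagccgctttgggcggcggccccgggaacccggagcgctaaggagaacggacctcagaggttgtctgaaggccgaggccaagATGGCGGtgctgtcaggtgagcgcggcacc
NDUFA11, chr19:5903741-5904040, minus strand: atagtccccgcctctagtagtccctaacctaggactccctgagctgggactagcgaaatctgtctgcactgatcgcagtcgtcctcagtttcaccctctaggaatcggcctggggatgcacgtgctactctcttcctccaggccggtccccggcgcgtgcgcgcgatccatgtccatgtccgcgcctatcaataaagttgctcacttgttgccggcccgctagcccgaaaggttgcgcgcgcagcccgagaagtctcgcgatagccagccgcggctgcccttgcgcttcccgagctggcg
COX4I1, chr16:85799445-85799744, plus strand: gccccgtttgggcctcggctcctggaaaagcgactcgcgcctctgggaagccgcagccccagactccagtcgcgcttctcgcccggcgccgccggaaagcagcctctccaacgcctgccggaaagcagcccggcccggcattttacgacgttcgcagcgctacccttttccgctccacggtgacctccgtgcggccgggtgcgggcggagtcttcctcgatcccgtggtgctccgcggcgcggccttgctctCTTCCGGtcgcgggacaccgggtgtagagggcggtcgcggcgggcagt

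None of the 6 windows held a TATA word. The *SDHD* window held 5 matches, of which the 2 NRF1 matches are the overlapping readings of 1 palindromic stretch on both strands, whereas the *COX5A* and *NDUFA11* windows held none. The 59 windows include those of *COX6A2* and the divergent locus *NDUFA6-DT*, which were not tested. Over all genes with a window, the YY1 word lay in 19 of 59 (32.2%). Both *NDUFA6* and *NDUFA6-DT*, whose starts lie close together on opposite strands, are among the 19. The YY1 share was 10.2% in windows of genes tested in either experiment and 5.72% in all 27303 windows. The ETS word lay in 15 of 59 (25.4%), against 19.5% and 10.7%, and the NRF1 word in 6 of 59 (10.2%), against 3.73% and 2.10%. The TATA word lay in 6 of 59 windows (10.2%), against 5.74% and 12.0%. NRF1, the ETS factor GABP and YY1 are textbook activators of respiratory genes. The YY1 word begins with ATG, and in the *SDHD* and *NDUFS7* windows a match to it lies after the annotated start. Whether such matches are start codons of the protein was not tested. A match is only a run of letters, and no occupancy of these windows was measured here.

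Every subunit outside the isoform and readthrough groups passed the expression filter in both experiments. Levels were compared between genes as TPM, which divides by the length of a single canonical transcript per gene, so the order depends on that length. In AF9 control cells *UQCRB* (8459 bases) had a mean of 494 CPM and 130.5 TPM, and *UQCRH* (537 bases) 506 CPM and 2107 TPM. Which transcripts HEL cells use was not tested. In the MLL1 experiment the tested subunits ran from 5.25 TPM (*NDUFA3*) to 708 TPM, with a median of 87.1 TPM. The 5 highest were *COX6A1* (708 ± 108 TPM, SD, n = 3), *NDUFS8* (623 ± 100.4), *UQCRH* (475 ± 33.9), *NDUFB9* (440.4 ± 68.2) and *COX6B1* (421 ± 124), and among neighbors in that order only *NDUFS8* and *UQCRH* were separated by more than either SD. In the AF9 experiment the median was 162 TPM, and the 5 highest were *UQCRH* (2107 ± 5.14 TPM, SD, n = 2), *NDUFB8* (1812 ± 1.48), *COX7A2* (1226 ± 62.3), *COX7C* (1146 ± 18.7) and *COX6B1* (1061 ± 17.5), each step being larger than either SD. *UQCRH* encodes the hinge protein of complex III, and the COX6 and COX7 proteins are small subunits around the catalytic core of complex IV. Of the *NDUFB8* transcript, 76.7% of the stretches of 31 bases also occur in other annotated loci, so its level is uncertain. The same limit holds for *COX6A1* (52.9%), *UQCRH* (49.7%) and *NDUFB9* (31.2%).

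The isoform pairs of complex IV were one-sided. *COX6A2* and *COX7A1*, the muscle isoforms, and *COX7B2* and *COX8C*, which are best known from testis, had 0 counts in all 10 libraries; 0 counts allow at most 0.431 CPM in the shallowest library and 0.211 CPM in the deepest. *COX4I2*, the lung isoform, had 3 counts in 1 control library of the MLL1 experiment and none elsewhere, and *COX6B2* had 1 count in 1 control library of the AF9 experiment. Their ubiquitous partners *COX4I1*, *COX6A1*, *COX6B1*, *COX7A2*, *COX7B* and *COX8A* were at 19.1 TPM or more in control cells of both experiments. These limits cover counting error only. *NDUFA4L2*, the hypoxia-inducible relative of *NDUFA4*, was at 13.4 TPM in control cells of the MLL1 experiment, against 30.1 TPM for *NDUFA4*, and at 0.233 to 0.675 CPM over the AF9 libraries, against 93.3 to 138 CPM for *NDUFA4*. *UQCRHL*, an intronless copy of *UQCRH* that shares 70.3% of its stretches of 31 bases with other genes, drew 0.740% as many counts as *UQCRH* in the MLL1 table and 15.4% as many in the AF9 table, and its values are uncertain. The tables were compared only within themselves. *NDUFC2-KCTD14* had no counts, and *NDUFA6-DT* stayed at 0.504 to 2.16 CPM; with the 6 silent isoforms they were the 8 genes below the filter of a mean of 1 TPM, which left 63 subunits tested in each experiment.

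In AF9 KD cells, transcripts of complexes II, III and IV that changed were lower, and the subunits that rose were all parts of complex I, which holds 37 of the 63 tested. At an adjusted p under 0.05, 15 of 63 subunits fell (23.8%) and 6 rose (9.52%), against a background of 14.7% lower and 14.6% higher among all 12985 genes tested. With a fold change of at least 1.5 as well, 3 fell (*COX5A*, *SDHD* and *UQCRB*; background 5.10%) and 3 rose (*NDUFB7*, *NDUFS7* and *NDUFA11*; background 8.11%). The share of subunits past both criteria was therefore no higher than that of genes at large in either direction. The median log2 fold change was -0.13 over the 63 subunits and 0.01 over all genes tested.

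**Figure D1:**
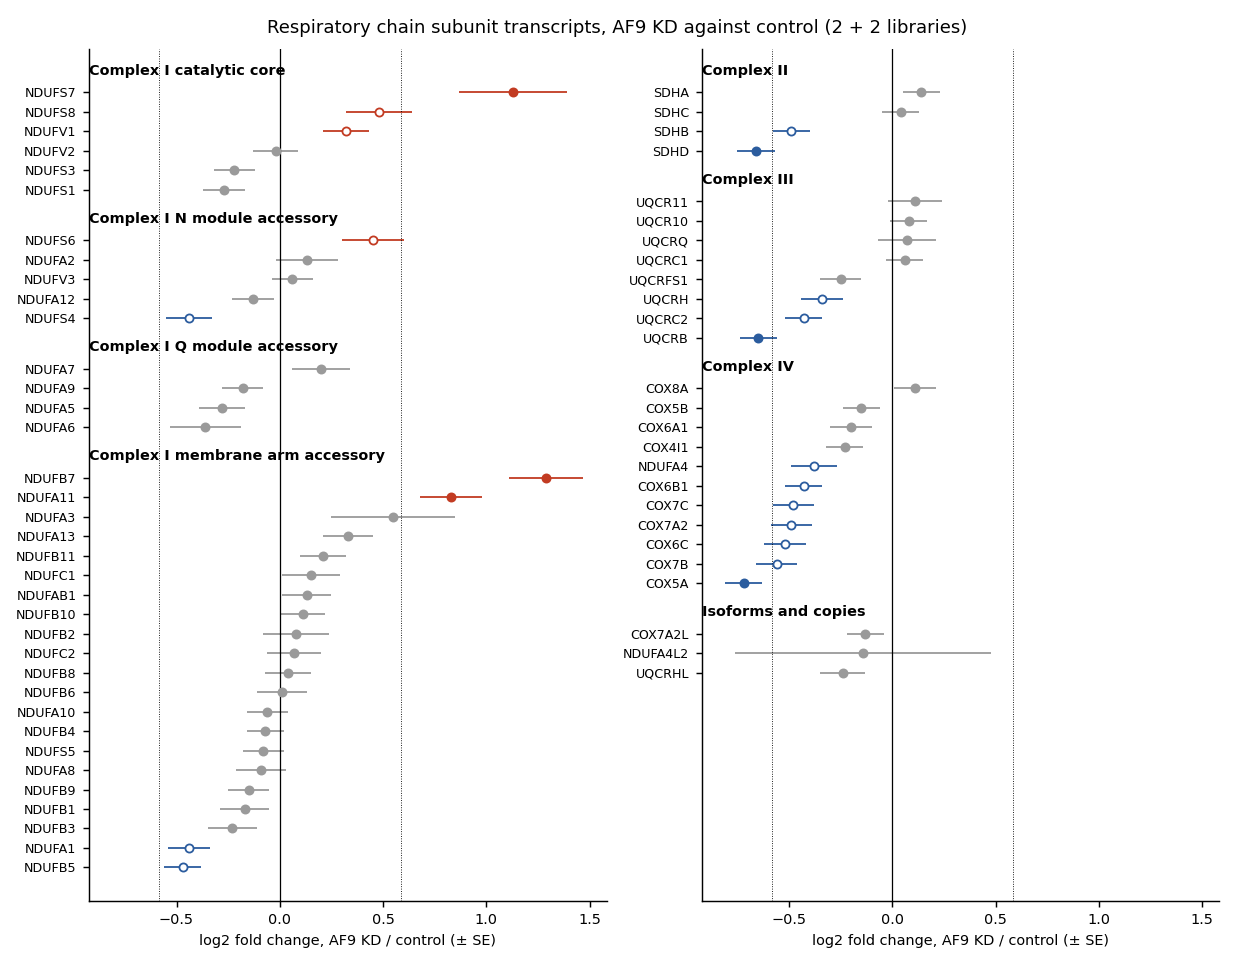
Log2 fold change (± SE) of 62 of the 63 tested subunits in AF9 KD against control cells, grouped by complex. Filled colored points passed the adjusted p and the fold change of 1.5 (dotted lines), open colored points the adjusted p alone, and gray points neither; complex IV lies almost wholly left of 0, and the 6 red points are all in complex I.

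Complex IV, the cytochrome c oxidase, moved mostly one way. Of its 11 ubiquitous nuclear subunits 7 fell (63.6%) and none rose, against 14.7% and 14.6% of all genes tested. Of the 11 fold changes 10 were below 0, against 6383 of 12985 over all genes, and the median was -0.43. Summed over the 11 genes, the level was 2016 and 2030.4 CPM in control cells and 1603 and 1462 CPM in AF9 KD cells, a KD mean of 75.8% of the control mean. *COX5A*, one of the largest nuclear subunits of the enzyme, was at 162 and 151 CPM in control cells and at 95.2 and 95.3 CPM in AF9 KD cells. Both KD libraries were far below both controls. The difference was -0.72 (SE 0.09, adjusted p = 2.5e-04), or 60.9% of the control level, and the gene lies at chr15:74919791-74938083 (hg38, minus strand).

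The other complex IV genes that fell were the small subunits *COX7B* (-0.56), *COX6C* (-0.52), *COX7A2* (-0.49), *COX7C* (-0.48) and *COX6B1* (-0.43), and *NDUFA4* (-0.38), with SEs of 0.09 to 0.11. *COX7B* was at 143 and 147 CPM in control cells and at 107 and 90.0 CPM in KD cells. *COX6C* was at 251 and 256 CPM against 188 and 166 CPM. No KD library of either gene reached the lower control. *COX4I1*, the other large nuclear subunit, was at 205 and 202 CPM against 173 and 174 CPM, a difference of -0.23 (SE 0.09, adjusted p = 0.0645) that missed the threshold. *COX5B* (-0.15), *COX6A1* (-0.20) and *COX8A* (0.11) did not pass either. *COX7A2L*, whose product tethers complexes III and IV into supercomplexes, had -0.13 (SE 0.09).

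Complex II, succinate dehydrogenase, was split between its 4 subunits. *SDHD*, a membrane anchor, was at 151 and 142 CPM in control cells and at 95.3 and 90.6 CPM in AF9 KD cells. The groups were well apart, with a difference of -0.66 (SE 0.09, adjusted p = 4.2e-04) and a KD level of 63.4% of control, and the gene lies at chr11:112086824-112120016 (hg38, plus strand). *SDHB*, the iron-sulfur subunit, was at 196 and 197 CPM against 148 and 133 CPM, and fell by 0.49 on the log2 scale (SE 0.09, adjusted p = 0.00252). *SDHA*, the flavoprotein, was at 132 and 137 CPM against 145 and 150.4 CPM (0.14, SE 0.09), and *SDHC*, the other anchor, was at 99.7 and 92.7 CPM against 98.0 and 99.6 CPM (0.04, SE 0.09). Neither passed the test. Of their stretches of 31 bases, *SDHA* shares 68.1% with 1 other locus, and *SDHD* shares 33.2% with other genes.

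In complex III, 3 of 8 subunits fell (37.5%) and none rose, against 14.7% and 14.6% of all genes. *UQCRB*, the ubiquinone-binding subunit, was at 502 and 485 CPM in control cells and at 326 and 303 CPM in AF9 KD cells, a drop to 63.7% of control (log2 -0.65, SE 0.09, adjusted p = 5.1e-04). *UQCRC2*, a core protein, was at 332 and 311 CPM against 241 and 236 CPM (-0.43, SE 0.09). *UQCRH* was at 502 and 511 CPM against 421 and 382 CPM (-0.34, SE 0.10). All 3 genes had both KD libraries below both controls, which is no support apart from the test they passed on the same libraries. The other core protein, *UQCRC1*, was at 223 and 224 CPM against 234 and 231 CPM (0.06, SE 0.09), and the Rieske iron-sulfur protein, *UQCRFS1*, was at 190.0 and 186 CPM against 170.0 and 145 CPM (-0.25, SE 0.10, adjusted p = 0.0713). So the 2 core proteins of complex III, which assemble together, differed in whether they passed. With offsets for the GC content of transcripts, given below, they were at -0.19 (*UQCRC1*, SE 0.08) and -0.31 (*UQCRC2*, SE 0.07). Both were then lower, and only *UQCRC2* passed. The difference between the 2 proteins' transcripts was not tested.

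Complex I, the NADH dehydrogenase and by far the largest complex, held both directions. Of 37 subunits 6 rose (16.2%, close to the 14.6% of all genes) and 3 fell, and the median was 0.01. *NDUFB7*, an accessory subunit at the intermembrane space face, was at 10.5 and 16.4 CPM in control cells and at 30.8 and 34.3 CPM in AF9 KD cells. This was the largest fold change of any subunit tested in AF9 KD cells (log2 1.29, SE 0.18, adjusted p = 4.3e-04), or 2.45-fold. *NDUFS7*, a catalytic subunit with an iron-sulfur cluster next to the quinone site, was at 5.44 and 7.98 CPM against 10.8 and 18.3 CPM (1.13, SE 0.26, adjusted p = 0.00658). *NDUFA11*, an accessory subunit of the membrane arm, was at 18.5 and 25.4 CPM against 39.2 and 38.7 CPM (0.83, SE 0.15, adjusted p = 0.00169). For each of the 3 both KD libraries lay above both controls, which again is no support apart from the test. The 2 KD libraries of *NDUFS7* were themselves far apart. *NDUFA11* shares 66.6% and *NDUFS7* 42.3% of their stretches of 31 bases with overlapping or readthrough loci, and *NDUFB7* none. In hg38 they lie at chr19:14566078-14572066 (*NDUFB7*, minus strand), chr19:1383527-1395589 (*NDUFS7*, plus strand) and chr19:5891276-5904006 (*NDUFA11*, minus strand).

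**Figure D2:**
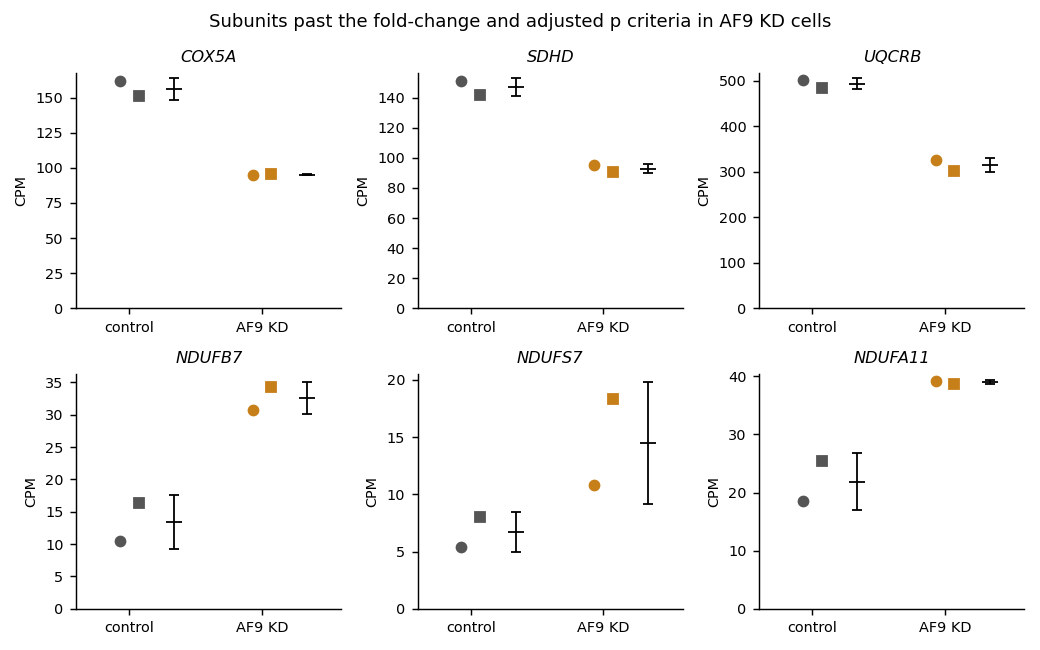
CPM of the 6 subunits past both criteria in each control (gray) and AF9 KD (orange) library; circles are replicate 1, squares replicate 2, and the bars show mean ± SD (n = 2). COX5A, SDHD and UQCRB are lower and NDUFB7, NDUFS7 and NDUFA11 higher in both KD libraries.

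The catalytic subunits *NDUFS8* (25.2 and 34.7 CPM against 37.0 and 46.0 CPM, log2 0.48, SE 0.16) and *NDUFV1* (90.3 and 107 CPM against 116 and 129.9 CPM, 0.32, SE 0.11) and the accessory subunit *NDUFS6* (26.6 and 36.5 CPM against 45.2 and 40.5 CPM, 0.45, SE 0.15) also rose, with adjusted p-values of 0.0386 to 0.0416. None of these 3 passed by DESeq2 (adjusted p = 0.0550, 0.0652 and 0.0600). *NDUFA3*, at under 3 CPM, had 0.55 (SE 0.30) and did not pass. The complex I genes that fell were the accessory subunits *NDUFB5* (-0.47, SE 0.09), *NDUFA1* (-0.44, SE 0.10) and *NDUFS4* (-0.44, SE 0.11). By module, the catalytic core had 3 higher and none lower of 7 (1 and none by DESeq2, none and 1, *NDUFS3*, with offsets for the GC content of transcripts), the N module accessory subunits 1 and 1 of 5, the Q module accessory subunits none of 4, and the membrane arm accessory subunits 2 and 2 of 21. The level summed over complex I was 3104 and 3192 CPM in control cells and 3230.3 and 2896 CPM in KD cells, and these groups overlapped.

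The direction of a subunit's change went with the base composition of its transcript. The 6 subunits that rose had canonical transcripts of 58.3 to 66.9% GC, with a median of 62.9%, and the 15 that fell had 39.1 to 53.5% GC, with a median of 42.9%; these 2 ranges did not overlap. Across the 63 subunits, Spearman's rho between log2 fold change and GC content was 0.72, and across 12694 tested genes with a matched transcript it was 0.50, both as descriptions over genes that share the same 4 libraries. In MLL1 KD cells the same values were -0.11 and -0.07. When a GC offset was fitted in each AF9 library, which by construction removes the trend over all genes, rho over the subunits was 0.28, and 2 subunits rose (*NDUFB7* and *NDUFA11*) and 16 fell at an adjusted p under 0.05, against 12.2% and 14.3% of all genes. Of the 15 that fell without the offsets 14 were among those 16.

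Under the offsets the complex I genes that had risen came closer to 0, and 2 of 37 (5.41%) still passed upward. *NDUFB7* stayed past both criteria at 0.68 (adjusted p = 0.00288), *NDUFA11* came to 0.37 (adjusted p = 0.0351), *NDUFS7* to 0.37 (adjusted p = 0.168), *NDUFS6* to 0.20 (adjusted p = 0.271), *NDUFS8* to -0.06 and *NDUFV1* to -0.05. In complex IV 7 of 11 were lower (63.6%, against 14.3% of all genes), with a median of -0.34. All 11 fold changes were below 0, against 6405 of 12985 over all genes. Of its subunits *NDUFA4* no longer passed (-0.21, adjusted p = 0.0982) and *COX4I1* now did (-0.29, adjusted p = 0.0135). *COX5A* stayed past both criteria at -0.62 (adjusted p = 2.1e-04), while *SDHD* (-0.49, adjusted p = 6.9e-04) and *UQCRB* (-0.47, adjusted p = 0.00113) kept the adjusted p but not the fold change of 1.5; past both criteria were 3.60% of all genes upward and 4.22% downward. *COX6B1*, whose transcript has 53.5% GC, was at -0.50. The part of GC content in these changes was not tested beyond the offsets.

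**Figure D3:**
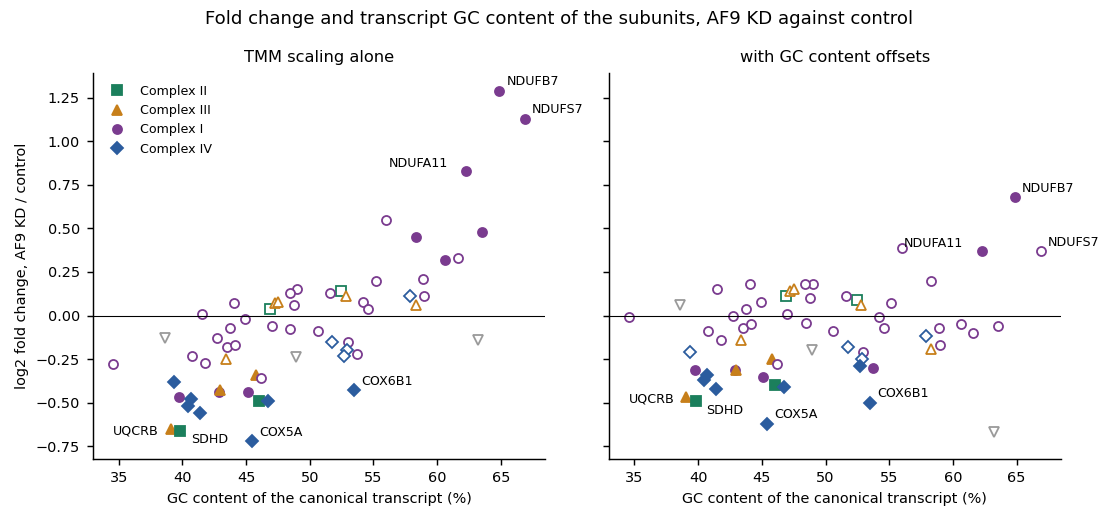
Log2 fold change in AF9 KD against control cells plotted on the GC content (%) of the canonical transcript for 62 of the 63 subunits, with TMM scaling alone (left) and with GC offsets (right); filled points passed an adjusted p of 0.05, and gray triangles are isoforms and copies. The 6 filled points above 0 on the left lie at 58.3% GC or more, and 2 remain on the right.

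The promoter windows shown above belong to both directions. Of the 15 genes that fell, 11 had a window, with a median of 49.7% GC, and the 6 that rose had a median of 62.7%, against 61.0% over the 59 windows. The *COX5A* window, at 70.7% GC, was far above the median of the fallers. The ETS word lay in 5 of the 11 windows of genes that fell and in 1 of the 6 that rose, the YY1 word in 3 of 11 and 3 of 6, the NRF1 word in 1 of 11 and 2 of 6, and the TATA word in 2 of 11 and 0 of 6. These are counts over a few windows and were not tested.

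The genes around the chain in AF9 KD cells were counted in lists of their own, at an adjusted p under 0.05. Among all genes tested, 14.6% rose and 14.7% fell at that threshold. Among 17 tested ATP synthase subunits 4 fell (23.5%) and none rose: *ATP5MD* (-0.48), *ATP5MPL* (-0.45), *ATP5PO* (-0.42) and *ATP5F1C* (-0.40). Neither cytochrome c (*CYCS*) nor the cytochrome c1 subunit of complex III (*CYC1*), whose symbol the rule does not take, passed the test. With the replicate block both passed, *CYCS* lower (-0.26, adjusted p = 0.0138) and *CYC1* higher (0.28, adjusted p = 0.00807), as did 41.7% of all genes. Under the GC offsets without the block they were at -0.11 and -0.14 and did not pass. Among 52 assembly factors 8 rose (15.4%) and 7 fell (13.5%), close to the shares of all genes. *SCO2*, a copper chaperone for complex IV, had 1.16 (SE 0.24), and 0.58 (adjusted p = 0.0651) under the GC offsets. *UQCC3*, a complex III factor, had 1.13 (SE 0.26), and *ACAD9*, a complex I factor, 0.65 (SE 0.12). *C16orf91* had 0.64 (SE 0.21), and 0.49 (adjusted p = 0.0789) under the GC offsets. Levels were low for *SCO2* (3.26 CPM in control against 7.24 CPM in KD cells), *UQCC3* (2.80 against 6.09 CPM) and *C16orf91* (4.69 against 7.28 CPM). *HIGD1A* fell by 0.64 on the log2 scale (SE 0.09). Of 13 regulators of mitochondrial genes 4 rose (30.8%) and 1 fell (7.69%). The riser past both criteria was *POLRMT*, the mitochondrial RNA polymerase (0.60, SE 0.14), which was at -0.09 under the GC offsets, and *GABPB1*, a partner of the ETS factor GABPA, fell by 0.46 on the log2 scale (SE 0.10). Among 13 coenzyme Q genes 1 rose (*COQ8B*, 0.56) and 1 fell (*COQ10B*, -0.38), neither of which passed under the GC offsets (0.08 and -0.19).

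Of the 12 erythroid markers, 4 rose (33.3%) and 2 fell (16.7%) in AF9 KD cells, against 14.6% and 14.7% of all genes tested. The median log2 fold change was 0.17. With the GC offsets 2 rose (16.7%) and 3 fell (25.0%), against 12.2% and 14.3% of all genes, and the median was -0.15, so its direction is not fixed. The summed level of the 12 markers was 38584 to 39343 TPM in control and 26573 to 32398 TPM in KD cells. That sum was almost wholly the globin genes *HBG1*, *HBG2* and *HBE1*, which reached 11902, 18616 and 6975 TPM. No other erythroid marker exceeded 683 TPM (*GYPC*), so the sum does not describe the other markers. *LYZ*, the only one of 4 monocyte markers that was tested, fell by 0.39 on the log2 scale (it missed the test with the GC offsets, at -0.24). The summed monocyte markers, which were almost wholly *LYZ*, were at 128 to 141 TPM in control and 103 to 117 TPM in KD cells. The part of these markers in the subunit changes was not tested. In bulk RNA, fewer cells of a state and less RNA per cell cannot be told apart.

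In MLL1 KD cells no subunit passed the test without the block. Of 63 subunits none had an adjusted p under 0.05, against 10 of 14313 genes tested (0.0699%). At an unadjusted p under 0.05 there were 2 subunits, *COX4I1* and *NDUFA7* (3.17%, against 9.94% of all genes), and DESeq2 called 1, *COX4I1*, past both criteria (0.838% of all genes were called lower that way). The median log2 fold change was -0.06 over the subunits and 0.01 over all genes. With the replicate block, 2 subunits rose and 4 fell at an adjusted p under 0.05, against 6.72% and 7.01% of all genes, and 1 rose (*NDUFA4L2*) and 1 fell (*COX4I1*) past the fold change of 1.5 as well, against 2.22% and 2.55%. So the share of subunits past the adjusted p was no higher than that of genes at large in either direction.

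**Figure D4:**
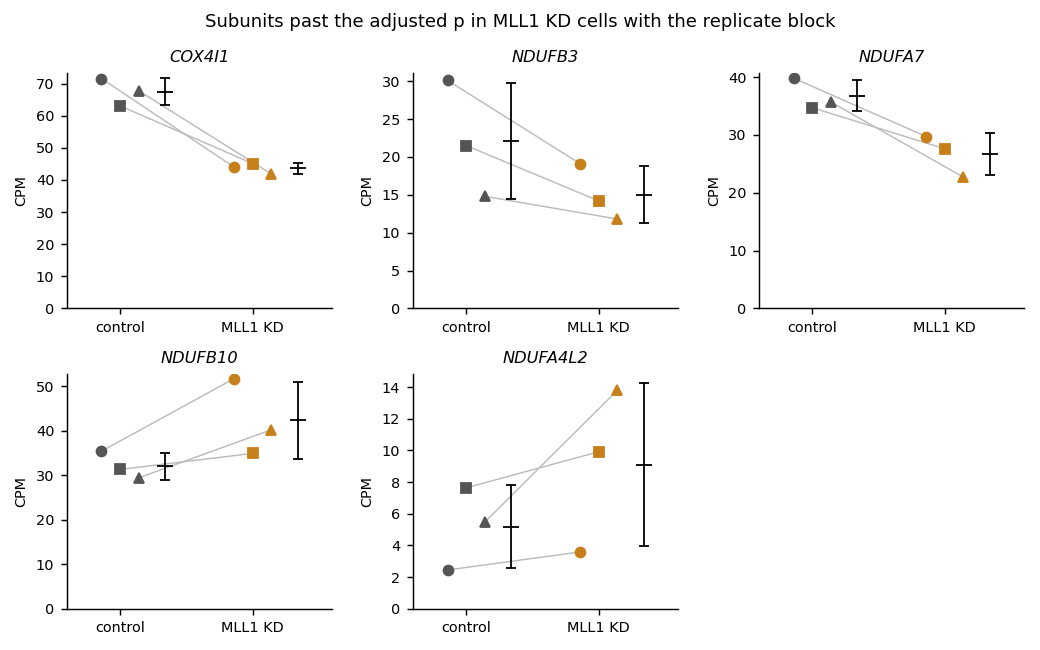
CPM of 5 of the 6 subunits past the adjusted p in MLL1 KD cells with the replicate block; circles, squares and triangles are replicates 1, 2 and 3, lines join libraries of the same number, and bars show mean ± SD (n = 3). COX4I1 is lower in all 3 KD libraries than in any control, and each NDUFA4L2 KD library is above the control of its number.

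*COX4I1*, a large nuclear subunit of complex IV through which ATP inhibits the enzyme, was the clearest case. It was at 71.6, 63.1 and 67.8 CPM in control cells and at 44.0, 45.1 and 41.9 CPM in MLL1 KD cells. All 3 KD libraries were below all 3 controls, at 64.7% of the control level. The difference was -0.63 both without the block (SE 0.12, adjusted p = 0.154) and with it (SE 0.10, adjusted p = 4.1e-04), and -0.59 in replicates 2 and 3 alone. The gene lies at chr16:85798633-85807068 (hg38, plus strand), its transcript has 52.7% GC, and 1.09% of its stretches of 31 bases occur elsewhere. The other 10 complex IV subunits lay between -0.17 and 0.20 with the block, and none of them passed.

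*NDUFA4L2* was at 2.45, 7.64 and 5.47 CPM in control cells and at 3.59, 9.92 and 13.8 CPM in MLL1 KD cells. The groups overlapped, but each KD library was above the control of its number. The difference was 0.81 without the block (SE 0.55, adjusted p = 0.718) and 0.79 with it (SE 0.25, adjusted p = 0.0450), and it rests on 19 to 55 counts per control library.

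In complex I, the accessory subunits *NDUFB3* and *NDUFA7* fell and *NDUFB10* rose with the block. *NDUFB3* was at 30.1, 21.5 and 14.8 CPM in control cells and at 19.1, 14.2 and 11.8 CPM in MLL1 KD cells (log2 -0.54, SE 0.16, adjusted p = 0.0277). *NDUFA7*, which shares 81.1% of its stretches of 31 bases with other loci, was at 39.8, 34.7 and 35.7 CPM against 29.7, 27.6 and 22.7 CPM (-0.47, SE 0.13, adjusted p = 0.0201). The groups overlapped for the former and not for the latter. *NDUFB10* was at 35.4, 31.3 and 29.4 CPM against 51.7, 34.9 and 40.2 CPM (0.39, SE 0.12, adjusted p = 0.0407). Without the block *NDUFB3*, *NDUFA7* and *NDUFB10* had adjusted p-values of 0.613, 0.377 and 0.535, and in replicates 2 and 3 alone of 0.0590, 0.00663 and 0.0984.

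**Figure D5:**
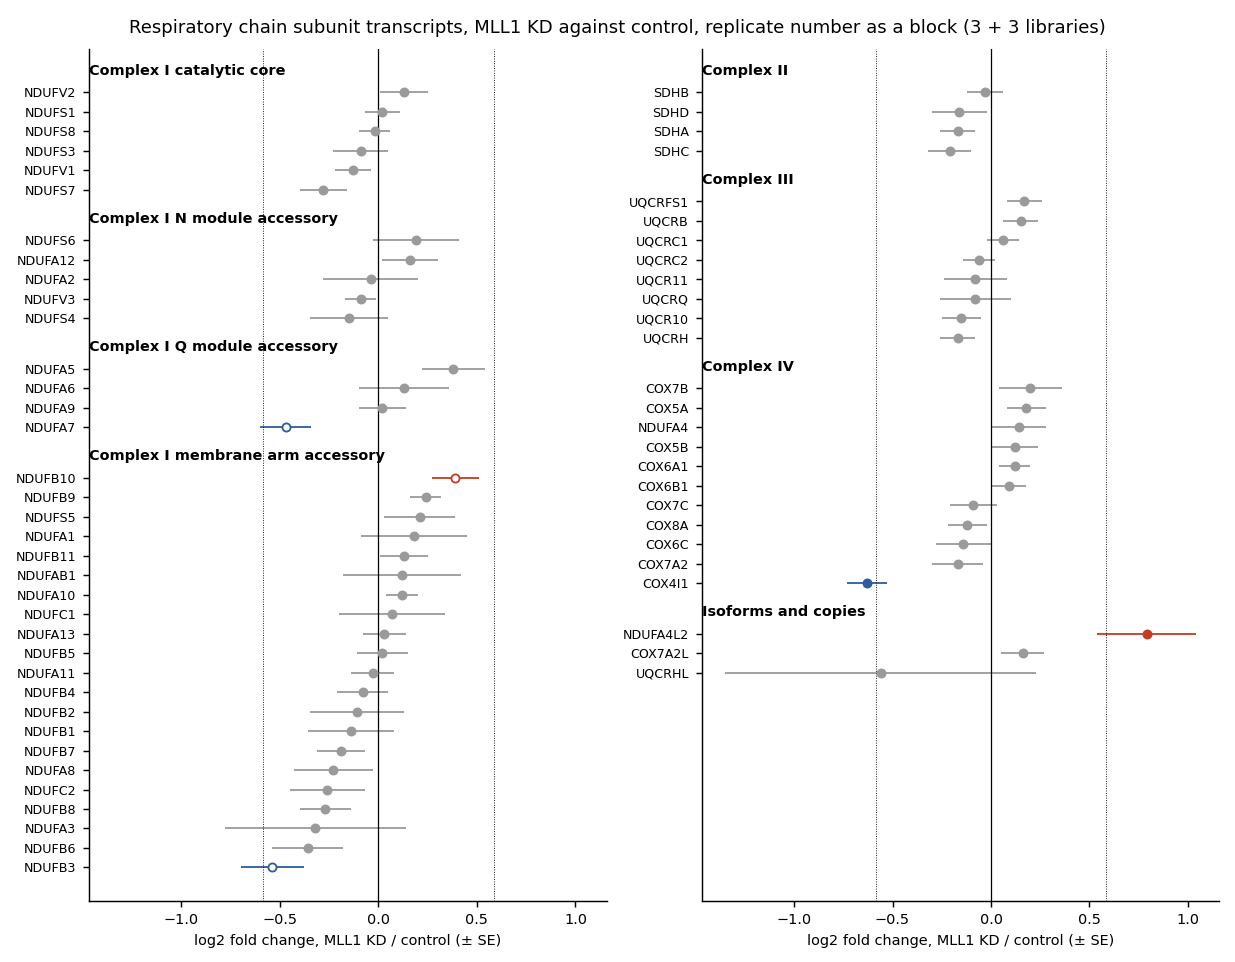
Log2 fold change (± SE) of 62 of the 63 tested subunits in MLL1 KD against control cells from the fit with the replicate block, grouped by complex. Points are colored as in the AF9 plot; most lie near 0, with COX4I1 and NDUFA4L2 beyond the dotted fold change of 1.5.

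The other subunits among the 5 largest log2 differences in either direction, without the block, were *NDUFB6* (-0.35, SE 0.18), *NDUFA5* (0.38, SE 0.19), *NDUFB9* (0.24, SE 0.17), *NDUFS6* (0.20, SE 0.21) and *UQCRHL* (-0.71, SE 0.84, on a few counts), and none of them passed with or without the block, though *NDUFB9* did in replicates 2 and 3 alone (0.25, adjusted p = 0.00565) and with the block and GC offsets together (0.27, adjusted p = 0.0310). Complexes II and III are given without the block. Complex II was at -0.03 (*SDHB*), -0.17 (*SDHA*), -0.17 (*SDHD*) and -0.21 (*SDHC*), with SEs of 0.17 to 0.25. *SDHB* shows the replicate pattern, with 116, 74.3 and 75.3 CPM in control cells and 115, 76.1 and 68.8 CPM in KD cells. In complex III, *UQCRC1* (0.07, SE 0.13), *UQCRC2* (-0.06, SE 0.11) and *UQCRFS1* (0.18, SE 0.21) did not pass. The level summed over all 71 genes was 3304 ± 361 CPM (SD, n = 3) in control and 3276 ± 385 CPM in MLL1 KD cells, a difference far smaller than the spread between replicates.

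Around the chain in MLL1 KD cells, no gene of the neighboring lists passed without the block. With the block, 6.72% of all genes tested rose and 7.01% fell at an adjusted p under 0.05. Among 17 ATP synthase subunits *ATP5PF* rose (0.32) and *ATP5MC2* fell by 0.31 (5.88% each). Of 51 assembly factors 1 rose (*COX20*, 0.60, 1.96% of the list) and 3 fell (*FOXRED1*, *SDHAF2* and *ACAD9*, 5.88%). The transcription factor *YY1* rose by 0.36 (SE 0.09, adjusted p = 0.0112) among 13 regulators, and the coenzyme Q kinase-like gene *COQ8A* fell by 0.38. *CYCS* and *CYC1* both missed the threshold. Of the 12 erythroid markers 7 fell with the block and none without it, and their summed level was 3947 to 4517 TPM in control and 3136 to 3358 TPM in KD cells. Of the 4 T cell markers *CD2* was the only one tested, and it rose with the block and by DESeq2 (log2 1.49 with the block). The summed T cell level, almost wholly *CD2*, was 8.05 to 11.4 TPM in control and 24.4 to 31.3 TPM in KD cells. The part of these markers in the subunit values was not tested.

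The 2 experiments have separate controls, and the values of the called subunits stand side by side as follows, without the block. *COX5A*, *SDHD* and *UQCRB*, which fell in AF9 KD cells, were at 0.18 (SE 0.21), -0.17 (SE 0.17) and 0.14 (SE 0.16) in MLL1 KD cells. *NDUFB7*, *NDUFS7* and *NDUFA11*, which rose in AF9 KD cells, were at -0.19 (SE 0.24), -0.28 (SE 0.14) and -0.03 (SE 0.28). *COX4I1* was at -0.63 in MLL1 KD and -0.23 in AF9 KD cells, and *NDUFA4L2* at 0.81 and -0.14 (SE 0.62). The difference between the KDs was not tested, since the tables were compared only within themselves.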

How the data were processed

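RNA-seq of poly(A) RNA from 10 HEL libraries was used. The authors trimmed reads (fastp 0.13.1), aligned them to hg38 (HISAT2 2.1.0) and deposited strand-specific raw counts per gene symbol (featureCounts 1.6.1); the annotation is not given in the sources used here. Symbols were matched to GENCODE v44 directly or through RefSeq synonyms (92.2%). Genes with a mean of at least 1 TPM, from the canonical transcript length, were tested within each experiment with edgeR 4.0.16 (TMM, quasi-likelihood F test, Benjamini-Hochberg over all genes tested; R 4.3.3), and a call needed an adjusted p under 0.05 together with a 1.5-fold difference. The scripts were tested on simulated data.

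Same-numbered libraries deviated together in all 3 MLL1 pairs (r = 0.65, 0.324 and 0.352; no shared source is stated). Libraries 2 and 3 of unlike number correlated as much (0.373 and 0.363), so the data set apart replicate 1 and do not tell numbers 2 and 3 as pairs. That fit was also made with the replicate number as a block. Replicates differed beyond counting noise (chi-square per degree of freedom 2.37 to 56.6). Exact permutation tests of single genes cannot go below 0.1 (3 against 3) or 0.333 (2 against 2) and were not used. The subunits, lists and tests were chosen with earlier results of these data known. Genes named are the targeted genes, those called, the 5 largest changes in each direction and the 5 highest levels per experiment, complex II, 3 complex III subunits and the isoform pairs; ATP synthase and other list genes, subunits past the adjusted p alone and the side-by-side values were added by their results. Alternatives used DESeq2 1.42.0, other scalings, filters, GC and length offsets, the replicate block and libraries left out. The values of 1 subunit are not reported here.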

Additional observations from a re-analysis of the deposited data

How the results depend on the processing

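In AF9 KD cells the 6 calls remained under DESeq2, other filters, length offsets and the replicate block. With GC offsets, with or without the replicate block, 2 calls were left (1 higher, 1 lower), and with total counts 4 (3 higher, 1 lower), where the median of the subunits came to -0.04 and that of all genes to 0.09. Thresholds of 2 and 1.2 on the fold change gave 2 and 21 calls. Leaving out each library in turn gave 6 to 10 calls (10 without AF9 KD replicate 1), 13 to 30 subunits at the adjusted p alone (13 without control replicate 1) and medians of -0.19 to -0.07. *NDUFS8* reversed to -0.06 and *NDUFV1* to -0.05 with the GC offsets, alone or with the block, and *NDUFS6* came to 0.20. These 3 genes also missed the adjusted p by DESeq2, which left 3 of the 6 that rose. The AF9 replicate numbers did not clearly pair the libraries (r = 0.178, 2 pairs); the block gave 28 subunits at the adjusted p alone against 21.

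In MLL1 KD cells the replicate block gave 2 calls and 6 subunits at the adjusted p alone, the block with GC offsets 2 and 7, replicates 2 and 3 alone (chosen after seeing the data) 2 and 6, and DESeq2, run on the tested genes or on all genes, 1 and 1. The 6 in replicates 2 and 3 alone were only partly those of the block. *COX4I1*, *NDUFA4L2* and *NDUFA7* were in both, whereas *NDUFB9* (higher), *NDUFS7* and *SDHA* (both lower) did not pass with the block alone. Leaving out 1 library gave 0 calls throughout and medians of -0.16 to 0.09, so the direction of the median is not fixed; *UQCRHL*, at a few counts, ran from -1.23 to 0.13 and reversed without control replicate 2. *KMT2A* passed with DESeq2 (-0.65), the block (-0.65), the block with GC offsets (-0.66), and replicates 2 and 3 alone (-0.64), and was at -0.68 to -0.64 with 1 library left out, passing only without MLL1 KD replicate 1. Beyond the construction of each alternative, the causes were not tested. With 2 or 3 libraries a group and low counts of *NDUFA3*, *NDUFA4L2* and *UQCRHL*, small differences were not detectable.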
